A study of Mus musculus with 12 samples.

Results

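The glycolysis and hypoxia genes are 36 genes that take glucose into the cell, break it down to lactate, sense oxygen, or are switched on when oxygen is low. They were taken by name, as the array genes whose printed name equals 1 of the 36 symbols, with Ero1a printed under its older name Ero1l. They make up 36 of the 27350 genes tested and 83 of the 56605 probes on the array. Expression was measured on 12 one-colour arrays of pancreatic tumours grown orthotopically in female C57BL/6 mice, which the labels call KP and give an age of 8 weeks. In 6 of these the mouse received FAKi, an inhibitor of focal adhesion kinase, at 50 mg/kg by gavage for 14 days, and in the other 6 it received vehicle for 14 days. The comparison asks how the tumour transcriptome differs once this adhesion kinase is inhibited. The labels number the tumours but say no more about how separate they were, so the p-values measure the spread between these samples. Each sample was RNA from a tumour piece with several cell types, in which fewer cells of a type and less RNA per cell cannot be told apart.

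Glycolysis turns glucose into pyruvate, and lactate dehydrogenase turns pyruvate into lactate that leaves the cell through monocarboxylate carriers. Under normal oxygen, prolyl hydroxylases mark the HIF alpha subunits for destruction. When oxygen is short the subunits persist, pair with ARNT, bind the core letters ACGTG or GCGTG, and raise glucose transporters, most glycolytic enzymes and genes such as Vegfa and Car9. Pancreatic tumours are known for dense stroma, few open vessels and low oxygen. HIF1A protein is controlled mainly by its stability, which arrays of RNA do not measure.

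Promoters of 4 of the genes are shown because Pgk1 is the gene the others are correlated with below, Bnip3 and Gpi1 were the genes whose correlation with it held under both scalings of the arrays, and Ero1a had the smallest p between the groups. Each line gives the 250 bases before the gene start from RefSeq on GRCm38.p6, 5′ to 3′ on the strand of the gene, with capitals where ACGTG or GCGTG was found on either strand. ACGTG overlaps the E-box CACGTG, which other factors bind. The windows are chrX:106186850-106187099, plus strand, for Pgk1, chr7:138909507-138909756, minus strand, for Bnip3, chr7:34230337-34230586, minus strand, for Gpi1 and chr14:45318573-45318822, minus strand, for Ero1a.
Pgk1: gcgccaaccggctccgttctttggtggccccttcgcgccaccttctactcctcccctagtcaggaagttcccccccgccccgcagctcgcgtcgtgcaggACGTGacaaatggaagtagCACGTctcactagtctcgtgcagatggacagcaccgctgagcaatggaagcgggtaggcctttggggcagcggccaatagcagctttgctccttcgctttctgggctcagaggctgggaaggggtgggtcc
Bnip3: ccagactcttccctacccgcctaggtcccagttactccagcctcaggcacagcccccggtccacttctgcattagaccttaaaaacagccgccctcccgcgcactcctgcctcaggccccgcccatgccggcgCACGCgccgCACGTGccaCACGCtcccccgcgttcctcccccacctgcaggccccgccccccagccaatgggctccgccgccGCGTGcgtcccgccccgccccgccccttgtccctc
Gpi1: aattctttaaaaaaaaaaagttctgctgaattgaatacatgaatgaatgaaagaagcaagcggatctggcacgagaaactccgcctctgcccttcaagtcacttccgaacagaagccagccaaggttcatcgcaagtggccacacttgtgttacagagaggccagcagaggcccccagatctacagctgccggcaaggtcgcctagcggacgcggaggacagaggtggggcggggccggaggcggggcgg
Ero1a: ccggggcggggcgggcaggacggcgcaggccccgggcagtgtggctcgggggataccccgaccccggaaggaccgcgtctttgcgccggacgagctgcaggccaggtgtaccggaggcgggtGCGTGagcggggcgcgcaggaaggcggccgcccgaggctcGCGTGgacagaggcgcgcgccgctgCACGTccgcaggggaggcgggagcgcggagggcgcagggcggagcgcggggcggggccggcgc

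The Pgk1 window held 2 matches, the Bnip3 window 5 counting both strands of 1 E-box, the Ero1a window 3 and the Gpi1 window 0. Of the 36 genes, 33 had an entry, with 47 windows of 300 bases that run from 250 bases before to 50 after the start. A match stood in 80.9% of these windows, against 43.8% of the 32851 windows of all genes. At least 2 matches stood in 61.7% of the members' windows, against 20.6% of all windows. The members' windows were also richer in G and C, with a median of 62.3% against 52.7%, and both motifs hold mostly these letters. The matches are a description of the letters and not of binding.

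Levels are log2 processed signal minus the 75th percentile of the same array, so a difference of 1 is a doubling, and levels of different probes are not compared. The 75th percentile itself lay between 11.84 and 13.90 on the log2 scale, and the share of spots clear of background was 66.6% to 76.1%. Its lowest and highest values were both in vehicle tumours, 11.84 in vehicle 6 and 13.90 in vehicle 1. The arrays lay on 5 slides, of which slide 1 (FAKi 5 with vehicle 3 and 5) and slide 4 (FAKi 1 with vehicle 2 and 6) held both groups, so a value within a slide rests on 1 FAKi and 2 vehicle tumours. Counts without FAKi 6, vehicle 5 and vehicle 6, a choice made after seeing the data, are given with the results.

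The 36 genes showed small differences in both directions, with the hypoxia targets mostly lower in FAKi tumours and the abundant glycolytic enzymes close to 0 over the 12 tumours. In limma with Benjamini-Hochberg adjustment over all genes, 0 of the 36 passed, where 0% of the 27350 genes did, and the adjusted p of each of the 36 was 0.9995. At an unadjusted p under 0.05 stood 3 of the 36, Ero1a, Epas1 and Pfkp, against 4.79% of all genes. All 3 were lower in FAKi tumours, a direction in which 2.05% of all genes passed that mark, and 0 were higher, where 2.74% of all genes were. Array weights gave 0 adjusted and 6 unadjusted calls among the 36, where 19.2% of all genes had an unadjusted p under 0.05. The fit without vehicle 5, vehicle 6 and FAKi 6 gave 0 and 5, where 17.8% of all genes did. The groups overlapped for each of the 36, where 0.238% of all genes had groups without overlap. The median log2 difference, FAKi minus vehicle, was -0.13 over the 36 genes and 0.085 over all genes, with a median standard error of 0.30 for the 36. Of the 36, 11 were above 0, against 60.8% of all genes. The median over the 36 was -0.18 with quantile normalisation, where all genes gave 0.038. With slide as a fixed block it was -0.48, where all genes gave -0.025. That block draws the difference from slides 1 and 4 alone, the slides that held both groups. Without vehicle 5, vehicle 6 and FAKi 6 the median over the 36 was 0.0043, where all genes gave 0.15.

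**Figure D1:**
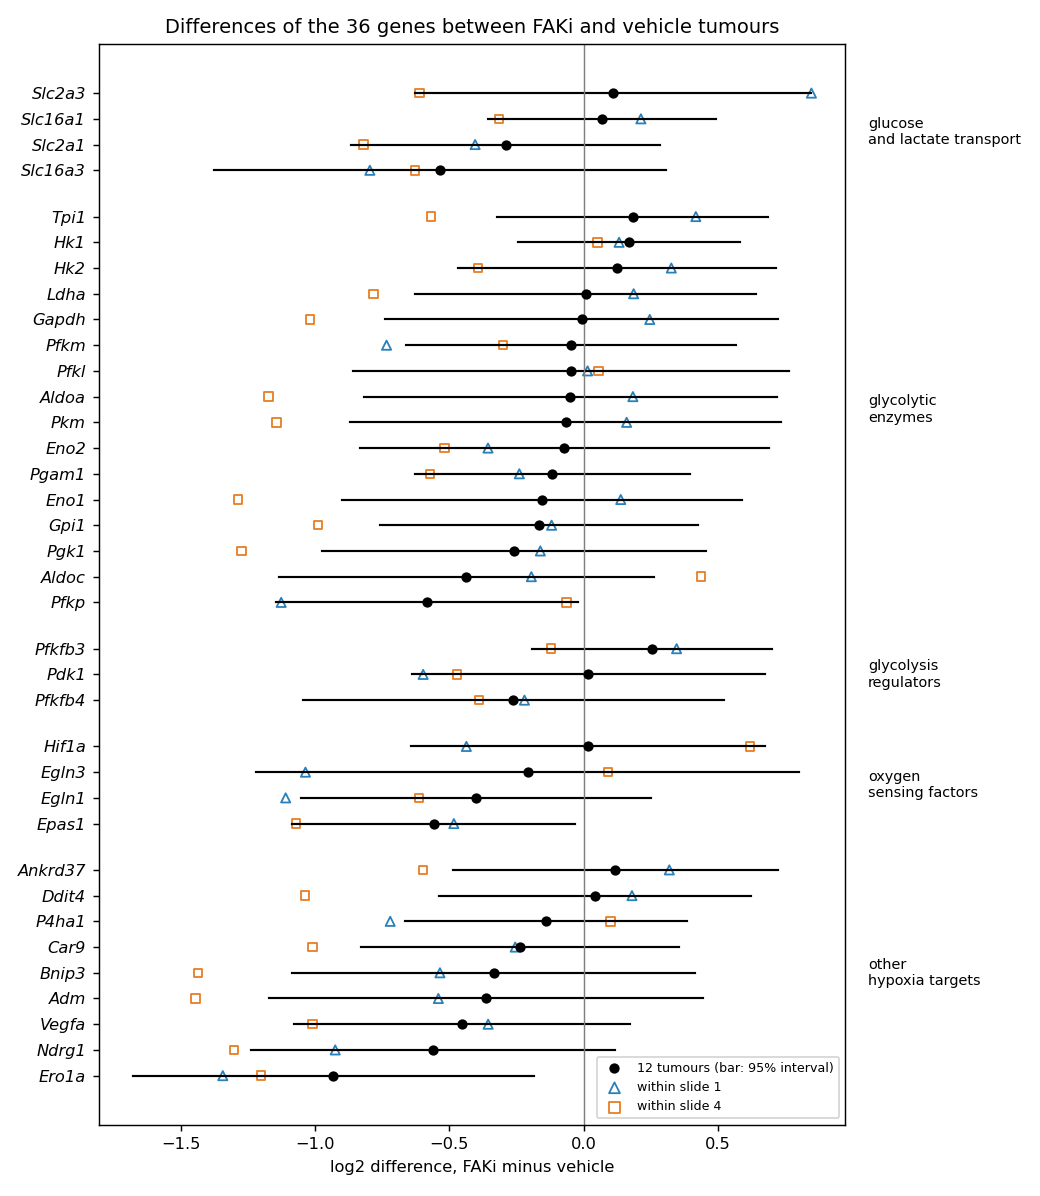
Log2 difference between FAKi and vehicle tumours (x axis) for each of the 36 genes (y axis), grouped by role. Dots are the value over 12 tumours with its 95% interval, triangles and squares the values within slides 1 and 4. The intervals of Ero1a, Epas1 and Pfkp lie below 0, and the other 33 include 0.

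Glucose enters tumour cells mainly through Slc2a1 (GLUT1) and Slc2a3 (GLUT3). Slc2a1 had a lowest level of 2.85, a median of 3.64 and a highest of 4.30 in FAKi tumours, against 3.37, 3.85 and 4.30 in vehicle tumours. FAKi 4 was the lowest of the 12 tumours and FAKi 5 also lay below every vehicle tumour, while FAKi 6 stood at the top with vehicle 2. The difference was -0.29 (SE 0.27, 95% interval -0.86 to 0.29; limma unadjusted p = 0.297). For Slc2a3 it was 0.11, with -1.12 ± 0.68 in FAKi and -1.23 ± 0.53 in vehicle tumours (SD, n = 6 each).

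Lactate leaves through Slc16a3 (MCT4), the carrier suited to export, and moves either way through Slc16a1 (MCT1). Slc16a3 had a lowest level of 2.61, a median of 3.16 and a highest of 3.77 in FAKi tumours, against 2.40, 3.46 and 4.76 in vehicle tumours. Vehicle 5 and vehicle 6 stood together well above the other 10 tumours, and vehicle 3 was the lowest of all. The difference was -0.54 (SE 0.39, 95% interval -1.38 to 0.30; limma unadjusted p = 0.192), with 5 of 6 FAKi tumours below the vehicle mean, and it ranged from -0.79 to -0.32 when 1 tumour was left out. Slc16a1 differed by 0.068, with 1.502 ± 0.27 in FAKi and 1.43 ± 0.20 in vehicle tumours (SD, n = 6 each).

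Among the 16 glycolytic enzymes, 12 had a difference below 0 and 4 above, with a median of -0.059. Phosphofructokinase makes the committed step, and its platelet-type subunit Pfkp had a lowest level of -0.15, a median of 0.58 and a highest of 1.16 in FAKi tumours, against 0.82, 1.15 and 1.55 in vehicle tumours. FAKi 2, 3, 4 and 5 lay below every vehicle tumour, while FAKi 1 and 6 were inside the vehicle range. The difference was -0.58 (SE 0.26, 95% interval -1.15 to -0.022; limma unadjusted p = 0.0429). It was -1.13 within slide 1 and -0.065 within slide 4, and its 5 kept probes ran from -0.58 to 0.35. The mean of its probes gave -0.31 (limma unadjusted p = 0.269), and p was 0.164 with slide as a fixed block and 0.0588 with the replicate block. The liver-type subunit Pfkl differed by -0.048 and the muscle-type subunit Pfkm by -0.047.

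Aldolase splits the 6-carbon sugar, and its brain-type form Aldoc had a lowest level of 1.52, a median of 2.19 and a highest of 3.15 in FAKi tumours, against 1.91, 2.71 and 3.42 in vehicle tumours. FAKi 3 was the lowest of all tumours, FAKi 1 stood high, and vehicle 5 and 6 lay among the low FAKi values. The difference was -0.44 (SE 0.32, 95% interval -1.14 to 0.26; limma unadjusted p = 0.199), and it turned sign within slide 4, at 0.44. The muscle-type form, Aldoa, differed by -0.050.

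Pgk1, which makes the first ATP of the pathway, had a lowest level of 5.19, a median of 5.44 and a highest of 5.83 in FAKi tumours, against 4.58, 5.77 and 6.96 in vehicle tumours. All 6 FAKi tumours lay between vehicle 1, the lowest, and vehicle 6, the highest. The difference was -0.26 (SE 0.33, 95% interval -0.98 to 0.46; limma unadjusted p = 0.447), at -0.16 within slide 1 and -1.27 within slide 4. Ldha, which makes lactate from pyruvate, had a lowest level of 5.49, a median of 5.75 and a highest of 6.00 in FAKi tumours, against 4.73, 5.71 and 6.82 in vehicle tumours. Vehicle 1 and vehicle 6 again marked both ends. The difference was 0.0075 (SE 0.29, 95% interval -0.63 to 0.64; limma unadjusted p = 0.980).

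The other 9 enzymes lay between -0.17 for Gpi1, which turns glucose-6-phosphate into fructose-6-phosphate, and 0.18 for Tpi1, which interconverts the 3-carbon sugars. Hexokinases trap glucose, and Hk1 differed by 0.17 with all 6 FAKi tumours above the vehicle mean, while Hk2 differed by 0.13. Over the 12 tumours the late enzymes Gapdh, Pgam1, Eno1, Eno2 and Pkm differed by -0.0083, -0.12, -0.16, -0.072 and -0.067. These values differed between slides 1 and 4. Slide 4 held vehicle 6, the highest of the 12 tumours for Aldoa, Gapdh, Eno1 and Pkm, and the part of this tumour was not tested. Within slide 4, Aldoa, Gapdh, Eno1 and Pkm differed by -1.17, -1.02, -1.29 and -1.14. Within slide 1 the same genes differed by 0.18, 0.25, 0.14 and 0.16, and with slide as a fixed block by -0.49, -0.39, -0.57 and -0.49. Among enzymes with several kept probes, those of Gapdh, Gpi1, Hk1, Eno1, Pfkl, Pfkp and Pkm differed in sign, and whether their probes also read pseudogene or related transcripts was not tested. The highest Pkm probe difference was 0.97 and the highest Eno1 one 1.08. Probes of Aldoa, Gapdh, Ldha, Pgam1, Pgk1, Pkm and Tpi1 were brighter than 99% of all probes, and none of the 36 probes that stand for the genes was above 79.9% of saturation. Other kept Gapdh probes reached 81.8%.

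The enzymes' levels were more spread in vehicle tumours with 75th percentile scaling. The median SD over the 16 enzymes was 0.31 in FAKi and 0.65 in vehicle tumours, and 13 of the 16 had the larger SD in vehicle tumours. Without vehicle 1 and vehicle 6, chosen after their values were seen, the vehicle median was 0.25 and 8 of 16 had the larger vehicle SD. With quantile normalisation the medians were 0.24 in FAKi and 0.28 in vehicle tumours. No test was made of the spread.

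**Figure D2:**
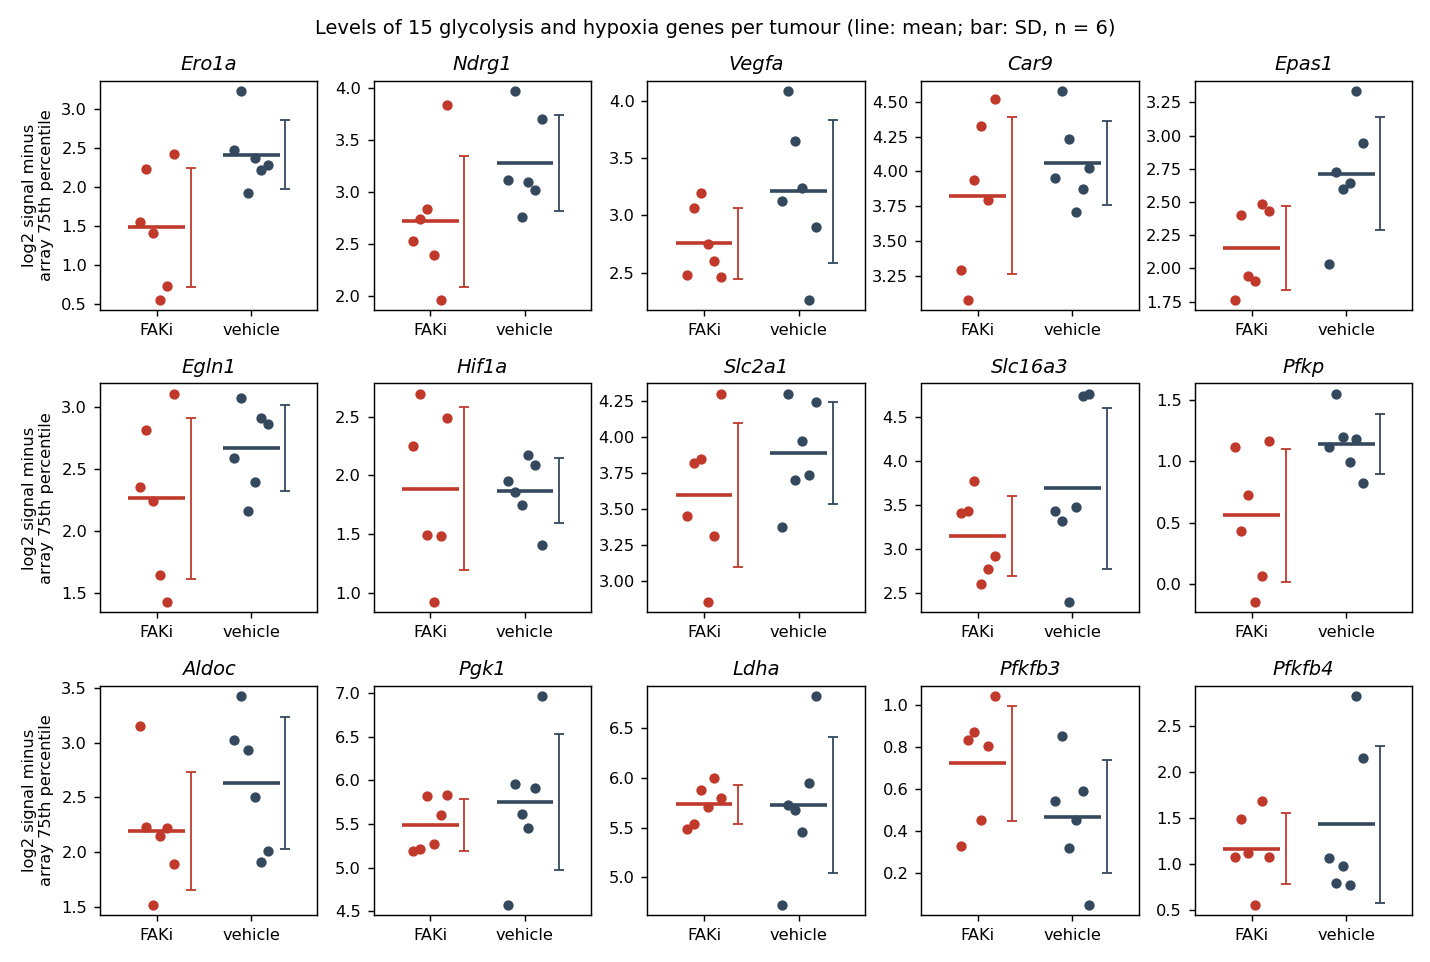
Level of 15 genes (y axes, log2 signal minus the array's 75th percentile) in 6 FAKi and 6 vehicle tumours (1 dot each), with the mean as a line and the SD as a bar. Vehicle 1 and vehicle 6 lie below and above all FAKi tumours for Pgk1 and Ldha, and most FAKi tumours lie low for Ero1a and Epas1.

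The 3 regulators set the pace around the pathway's control points. Pfkfb3, which makes the activator of phosphofructokinase, had a lowest level of 0.33, a median of 0.82 and a highest of 1.04 in FAKi tumours, against 0.050, 0.50 and 0.85 in vehicle tumours. FAKi 6 was the highest tumour and vehicle 6 the lowest, and the rest overlapped. The difference was 0.25 (SE 0.21, 95% interval -0.19 to 0.70; limma unadjusted p = 0.244), the highest of the 36.

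Pfkfb4, a related enzyme with both kinase and phosphatase activity, had a lowest level of 0.56, a median of 1.097 and a highest of 1.68 in FAKi tumours, against 0.77, 1.02 and 2.82 in vehicle tumours. Vehicle 5 and 6 stood above all other tumours. The difference was -0.26 (SE 0.36, 95% interval -1.05 to 0.52; limma unadjusted p = 0.483). Pdk1, which holds back the entry of pyruvate into mitochondria, differed by 0.017, with 1.13 ± 0.71 in FAKi and 1.11 ± 0.22 in vehicle tumours (SD, n = 6 each).

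The oxygen sensing genes comprise the alpha subunits Hif1a and Epas1 (HIF2 alpha) and the prolyl hydroxylases Egln1 and Egln3. Hif1a had a lowest level of 0.92, a median of 1.87 and a highest of 2.70 in FAKi tumours, against 1.40, 1.91 and 2.17 in vehicle tumours. Both ends of the range were FAKi tumours, FAKi 4 low and FAKi 2 high, with an SD of 0.69 in FAKi and 0.28 in vehicle tumours. The difference was 0.017 (SE 0.31, 95% interval -0.64 to 0.68; limma unadjusted p = 0.957). Its second, dimmer kept probe differed by -1.74, so the mean of both probes gave -0.86.

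Epas1 had a lowest level of 1.76, a median of 2.17 and a highest of 2.48 in FAKi tumours, against 2.04, 2.68 and 3.33 in vehicle tumours. FAKi 1, 3 and 4 lay below every vehicle tumour, and all 6 FAKi tumours lay below the vehicle mean. The difference was -0.56 (SE 0.24, 95% interval -1.09 to -0.032; limma unadjusted p = 0.0391). It kept its sign in both slides, at -0.48 within slide 1 and -1.07 within slide 4, and ranged from -0.69 to -0.44 when 1 tumour was left out. Its unadjusted limma p was 0.0598 with slide as a fixed block and 0.0874 without vehicle 5. Epas1 is also strongly expressed in vessel lining cells. Of 9 endothelial markers 8 had a difference below 0, with a median of -0.32 and 0 called in limma. Vwf at -1.06 (SE 0.35) and Cdh5 at -1.05 (SE 0.37) had the smallest unadjusted p, and the 3 kept probes of Vwf ran from -1.06 to -0.067. The median endothelial marker level, each gene centred on its mean, ran from -0.89 to 0.19 in FAKi and from -0.79 to 0.92 in vehicle tumours. All 9 markers were measured, and their part in the Epas1 difference was not tested.

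Egln1, the main oxygen sensor of the pair, had a lowest level of 1.43, a median of 2.30 and a highest of 3.11 in FAKi tumours, against 2.16, 2.73 and 3.07 in vehicle tumours. FAKi 4 and 5 lay below every vehicle tumour, while FAKi 6 was the highest of all. The difference was -0.40 (SE 0.30, 95% interval -1.05 to 0.25; limma unadjusted p = 0.207). Egln3, itself a HIF target, differed by -0.21, with 0.55 ± 0.81 in FAKi and 0.76 ± 0.96 in vehicle tumours (SD, n = 6 each).

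Of the 9 other hypoxia targets, 7 had a difference below 0 and the median was -0.34. Ero1a, an oxidase that helps form disulphide bonds in the endoplasmic reticulum, had a lowest level of 0.55, a median of 1.48 and a highest of 2.42 in FAKi tumours, against 1.92, 2.32 and 3.23 in vehicle tumours. FAKi 1, 3, 4 and 5 lay below every vehicle tumour, with FAKi 4 and 5 lowest, while FAKi 2 and 6 were inside the vehicle range. The difference was -0.93 (SE 0.35, 95% interval -1.68 to -0.19; limma unadjusted p = 0.0181), a ratio of 0.524 of FAKi over vehicle. It was -1.34 within slide 1 and -1.20 within slide 4, and between -1.12 and -0.75 when 1 tumour was left out.

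Ndrg1, a cytoplasmic protein linked to stress and differentiation, had a lowest level of 1.97, a median of 2.63 and a highest of 3.83 in FAKi tumours, against 2.76, 3.11 and 3.97 in vehicle tumours. FAKi 1, 2, 4 and 5 lay below every vehicle tumour, and FAKi 6 came second only to vehicle 2. The difference was -0.56 (SE 0.32, 95% interval -1.24 to 0.12; limma unadjusted p = 0.0971), at -0.93 within slide 1 and -1.30 within slide 4.

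Vegfa, the growth factor that draws in vessels, had a lowest level of 2.46, a median of 2.67 and a highest of 3.19 in FAKi tumours, against 2.27, 3.18 and 4.08 in vehicle tumours. All 6 FAKi tumours were below the vehicle mean, yet vehicle 5 was the lowest of the 12. The difference was -0.45 (SE 0.29, 95% interval -1.08 to 0.17; limma unadjusted p = 0.142), and the 4 kept probes of Vegfa ran from -0.50 to -0.0055. Car9, the membrane carbonic anhydrase that handles acid outside the cell, had a lowest level of 3.08, a median of 3.87 and a highest of 4.52 in FAKi tumours, against 3.71, 3.99 and 4.57 in vehicle tumours. FAKi 1 and 2 lay below every vehicle tumour and the other 4 were inside the vehicle range. The difference was -0.24 (SE 0.27, 95% interval -0.83 to 0.36; limma unadjusted p = 0.405), and the second kept probe of Car9 differed by 0.021.

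The remaining targets overlapped widely. Adm (adrenomedullin, a vessel-relaxing peptide) differed by -0.36, Bnip3, which marks mitochondria for removal, by -0.34, and P4ha1, a subunit of the collagen prolyl hydroxylase, by -0.14. Ddit4, a brake on mTOR signalling, differed by 0.042 and Ankrd37 by 0.12. For 8 of the 36 genes, Slc2a1, Pfkp, Eno2, Pdk1, Egln1, Bnip3, Ero1a and Ndrg1, FAKi 4 and 5 were the 2 lowest and FAKi 6 the highest of the FAKi tumours, a pattern noticed after the values were seen. The share of all genes with this pattern was not computed. FAKi 6 was the highest FAKi tumour for 16 of the 36. The median over all genes, each centred on its mean, was also high in FAKi 6, at 0.27. In the other FAKi tumours it lay between -0.026 and 0.061. FAKi 5 was the highest for 7 others, Aldoa, Gapdh, Pkm and Ldha among them. FAKi 6 was alone on its slide, so this tumour and its slide cannot be told apart.

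**Figure D3:**
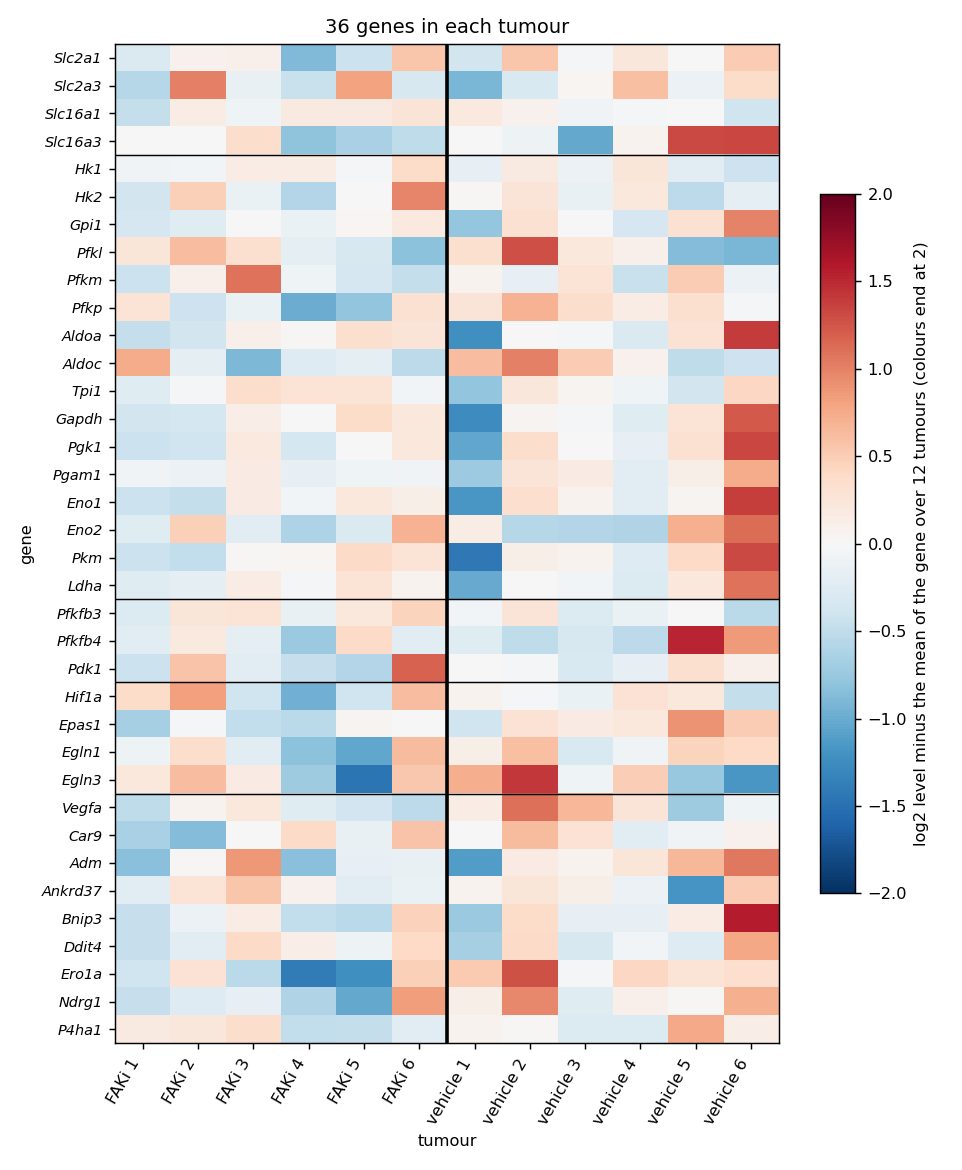
Level of each gene (y axis) in each tumour (x axis, FAKi left of the line and vehicle right), as the log2 level minus the gene's mean over 12 tumours. Abundant enzymes such as Aldoa, Gapdh and Pkm are low in vehicle 1 and high in vehicle 6, and Ero1a, Ndrg1 and Egln1 are low in FAKi 4 and 5.

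How the genes varied together was described by their correlation with Pgk1 over the 12 tumours, in 35 relations adjusted together. With 75th percentile scaling 10 passed, all positive, namely Adm, Aldoa, Bnip3, Ddit4, Eno1, Gapdh, Gpi1, Ldha, Pgam1 and Pkm. Gpi1 had the highest Pearson's r, 0.98, with Spearman's rho of 0.92 (permutation p = 1e-05, the smallest the 100000 resamples can give, for r, and 8e-05 for rho, adjusted p = 0.00035 and 0.00280). Bnip3 had an r of 0.92 and a rho of 0.83 (permutation p = 6e-05 and 0.00139, adjusted p = 0.0007 and 0.0101). Without vehicle 6 and vehicle 1, the 2 tumours farthest from the median of Pgk1, r was 0.90 for Gpi1 and 0.77 for Bnip3. Within the 6 FAKi tumours r was 0.91 and 0.69 for these genes, and within the 6 vehicle tumours 0.99 and 0.97. In the exact permutation test within FAKi tumours 0 of 35 passed adjustment, and the smallest adjusted p was 0.340. Within vehicle tumours 8 passed, Gpi1, Aldoa, Gapdh, Pgam1, Eno1, Ldha and Bnip3 at an adjusted exact permutation p of 0.0278 and Pkm at 0.0304. The difference between the groups was not tested. As deviations from slide means, over the 11 tumours that share a slide, r was 0.97 and 0.95.

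The scaling constant moved with these levels. The level of 10 of the 36 genes correlated with the 75th percentile of its array after adjustment by Pearson's r, all negatively, with r of -0.96 for Aldoa, -0.95 for Gapdh and -0.89 for Pgk1 (permutation p = 1e-05, 5e-05 and 0.00079; adjusted p = 0.00036, 0.0006 and 0.00406). Spearman's rho was -0.93, -0.92 and -0.69 for the same genes, with adjusted permutation p of 0.00126, 0.00126 and 0.0618, so that Pgk1 did not pass by rank. By Spearman 6 genes passed with a negative rho and 1, Pfkl, with a positive one of 0.75 (adjusted permutation p = 0.0391). The level contains the constant with a minus sign. With quantile normalisation 0 of 36 correlated with it after adjustment, and r was -0.22 for Pgk1 and -0.80 for Aldoa.

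**Figure D4:**
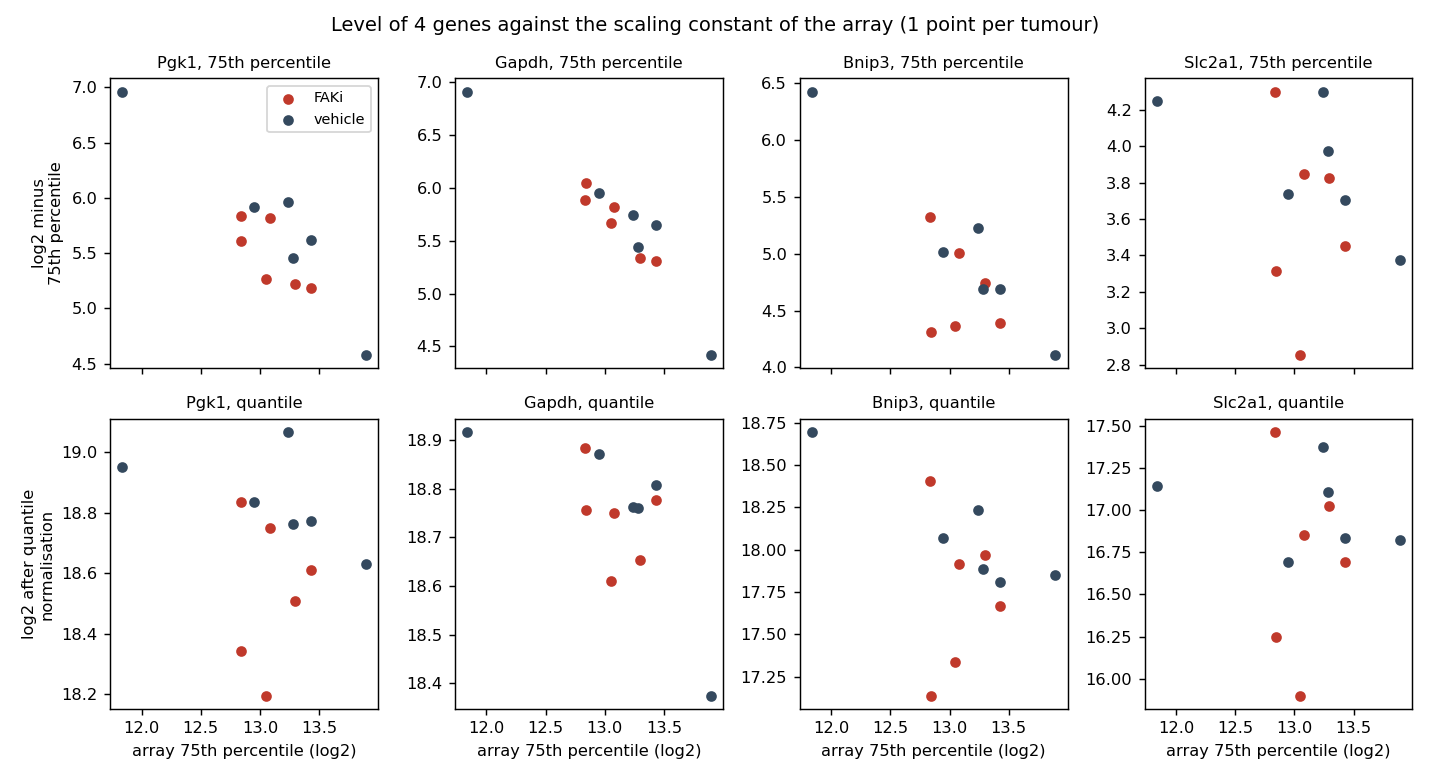
Level of Pgk1, Gapdh, Bnip3 and Slc2a1 (y axes, log2) against the 75th percentile of log2 signal of the array (x axis), with 75th percentile scaling above and quantile normalisation below, for 6 FAKi and 6 vehicle tumours. With the first scaling Pgk1 and Gapdh lie along a line from vehicle 6 to vehicle 1, and with quantile normalisation Pgk1 has an r of -0.22.

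Quantile normalisation also altered which genes went with Pgk1. It gave 7 calls, Bnip3, Egln1, Ero1a, Gpi1, Ndrg1, Pfkp and Slc2a1, all positive. Bnip3 and Gpi1 were called under both scalings, which is 20.0% of the 10 and 28.6% of the 7. Gapdh had an r of 0.94 with the first scaling and 0.49 with quantile normalisation, Ldha 0.94 and 0.30. In the other direction Ero1a had 0.18 and 0.80, Pfkp 0.14 and 0.85, and Slc2a1 0.63 and 0.85. The authors' deposited table gave 7 calls as well, with an r of 0.80 for Ero1a.

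**Figure D5:**
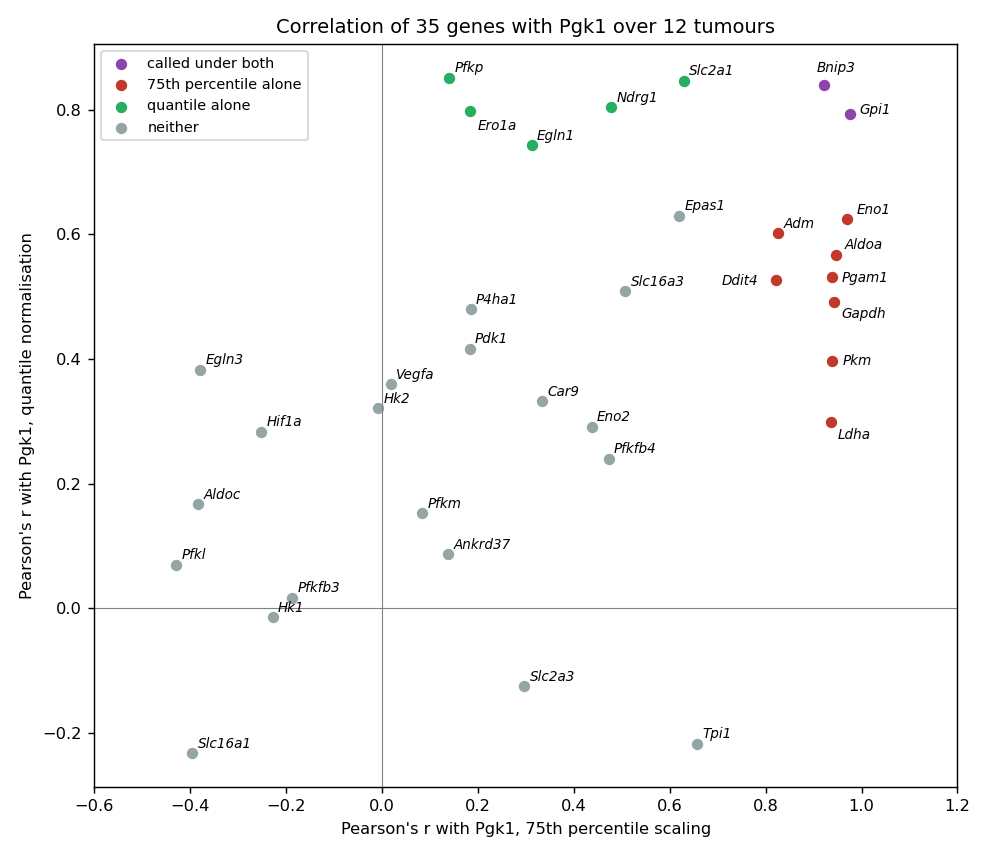
Pearson's r of 35 genes with Pgk1 over 12 tumours with 75th percentile scaling (x axis) and with quantile normalisation (y axis), coloured by which passed adjustment. Bnip3 and Gpi1 lie high on both axes, abundant enzymes such as Ldha and Pkm on the x axis alone, and Ero1a and Pfkp on the y axis alone.

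Other genes of the same pathways, from lists chosen beside the 36, held 0 adjusted calls among 202 measured genes of these and the cell type lists, and 9 at an unadjusted p under 0.05, against 4.79% of all genes. Of 30 further HIF targets 23 had a difference below 0, with a median of -0.16 against 0.085 over all genes, and 3 stood at an unadjusted p under 0.05, all lower, where 2.05% of all genes were. Among them Stc2 at -1.14 (SE 0.34), a secreted glycoprotein, had the smallest p, with all 6 FAKi tumours below the vehicle mean. Among 13 HIF partners and destruction factors 8 were above and 5 below 0. Arnt, the partner of both alpha subunits, stood at -0.48 (SE 0.28), with 3 kept probes from -0.48 to 0.13, and Hif3a at 0.63 (SE 0.52). These genes, like the members, did not pass adjustment.

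Of 19 further glycolytic isoenzymes and regulators 9 were above and 10 below 0, with Pfkfb2 at -0.99 (SE 0.27), a bifunctional regulator whose 3 kept probes ran from -0.99 to 0.13, and Tigar at 0.51 (SE 0.26), which lowers the activator of phosphofructokinase. Of 12 genes of pyruvate entry into mitochondria 5 were above and 7 below 0, with Pdk3 at -0.99 (SE 0.46), a kinase that holds the entry back, and Dlat at 0.33 (SE 0.18), a subunit of pyruvate dehydrogenase. The groups did not overlap for this probe of Dlat, as for 0.238% of all genes, and its second kept probe differed by 0.066. Over all genes 60.8% were above 0, with a median of 0.085. Of 20 citrate cycle and respiratory chain genes 14 were above 0, with a median of 0.10, Idh3b at 0.34 (SE 0.24) and Cox5a at 0.25 (SE 0.19). The pentose phosphate pathway had 5 of 7 above 0, with Pgls at 0.27 (SE 0.24) and Rpia at 0.22 (SE 0.22). Gluconeogenesis had 3 of 7 above 0, with G6pc3 at 0.37 (SE 0.34) and Fbp1 at -0.35 (SE 0.44). Of 7 glucose-responsive regulators 4 were above 0, with Myc at 1.16 (SE 0.30) and Arrdc4 at -0.43 (SE 0.26).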

How the data were processed

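Total RNA of 6 FAKi and 6 vehicle tumours was read on one-colour arrays in the Cy5 channel. Per the file headers, the intensity values deposited by the authors came from Agilent Feature Extraction 11.5.1.1, with background subtracted, and 11 of the 12 headers name the mouse build mm9. The authors also deposited a table of log2 values for 38569 probes, used as an alternative; the submitters' processing notes list limma with no version, and the sources used here do not give the normalisation of that table. Its columns matched their own arrays best (12 of 12, lowest r 0.9965 over probes, which are no independent replicates) with medians of 10.71 to 10.90, so its scale is log2 and its values are not centred on 0.

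Here, 59305 spots that were not controls were read per array, 71 to 156 outlier spots were left out, and 0 were saturated. Spots of 1 probe were averaged after the 75th percentile of the array was taken from the log2 processed signal. Probes well above background on at least 6 of 12 arrays were kept (40456 probes, 27350 genes), and the probe of highest mean stood for a gene. Of the members' 83 probes 78 were kept, and 15 members had 1 probe. Names came from RefSeq accessions for 32926 probes, symbols for 10208, synonyms for 519, the array's name for 12869 and the members' rule for 83. FAKi and vehicle were compared with limma 3.58.1 (lmFit, eBayes, R 4.3.3) over all genes at an adjusted threshold of 0.05 with no covariate. Correlations used Python 3.11.15 and numpy 2.4.6. The number of tumours limits the precision.

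All 36 genes are named. Values per tumour are given for the 2 of smallest p in each role and for Hif1a, Epas1, Slc2a1, Pgk1, Ldha, Vegfa and Car9, and 2 genes are named from each other list, except that 1 gene this rule took is not reported here. Members and lists were chosen with earlier results of these data known. The alternatives were quantile normalisation, normexp with an offset of 50, median centring, the deposited table, the mean of a gene's probes, other filters, array weights, a variance trend, slide and replicate blocks, and leaving out each array. Leaving out vehicle 5, vehicle 6 and FAKi 6 together, and the correlation with the scaling constant, were chosen after seeing the data. The procedures were tested on simulated data.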

Additional observations from a re-analysis of the deposited data

Results flagged for a closer look

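In 72 groups of 6 values (36 genes in FAKi and in vehicle tumours), 3 held a tumour far from the others, where chance gives about 1 in 20 groups. Pfkm, the muscle-type phosphofructokinase subunit, stood at 2.62 in FAKi 3, against 1.63 in the nearest FAKi tumour. Pgam1, phosphoglycerate mutase, stood at 5.60 in FAKi 3, against 5.36 in the nearest FAKi tumour. The median level of 12 skeletal muscle markers, each centred on its mean, was 4.74 in FAKi 3, between -1.35 and 0.79 in the other FAKi tumours and between -1.67 and 1.55 in vehicle tumours. The part of muscle RNA in both values was not tested. Ankrd37, a HIF target, stood at 0.20 in vehicle 5, against 1.27 in the nearest vehicle tumour.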

How the results depend on the processing

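Adjusted calls over all genes were 0, with 1310 at an unadjusted p under 0.05. Limma called 1 gene with normexp and 4 with array weights, and 0 to 3 when 1 array was left out, the 3 without FAKi 1. Unadjusted counts were 3807 without vehicle 6, 763 without FAKi 4, 491 with slide as a fixed block, 5243 with array weights and 4858 without vehicle 5, vehicle 6 and FAKi 6. Among the 36 genes, adjusted calls were 0 in each alternative run, and the 3 unadjusted ones became 6 with array weights, 5 without those 3 arrays, and 1 to 4 when 1 array was left out. The count was 1 without vehicle 2, vehicle 4, FAKi 3 or FAKi 4. The cause was not tested. The 202 other list genes had 0 adjusted calls in each alternative, with 4 to 31 unadjusted. Pearson correlations with Pgk1 that passed numbered 7 to 12. By Spearman they numbered 11 in the reported setting and 1 to 12 over the alternatives, with 1 for the mean of a gene's probes, 1 without vehicle 5, vehicle 6 and FAKi 6, and 6 without vehicle 6 or without FAKi 1.

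Same-numbered tumours correlated between -0.12 and 0.49, and 1 of 6 FAKi tumours, FAKi 6, correlated best with its own number. The labels do not say whether the numbers pair the tumours, and these correlations cannot decide it. A replicate block left 0 adjusted calls and 1667 unadjusted ones, 2 among the 36.

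The sign of the log2 difference turned for these genes, with the value beside each. With quantile normalisation they were Ldha -0.0090, Pdk1 -0.0022, Hif1a -0.022 and Ddit4 -0.034. In the deposited table they were Ldha -0.0085, Pdk1 -0.0023, Hif1a -0.021 and Ddit4 -0.033. With median centring they were Ldha -0.028, Pdk1 -0.018 and Hif1a -0.019, and with normexp Gapdh 0.0034 and Hif1a -0.013. With the mean of a gene's probes they were Pfkl 0.19, Gapdh 0.074, Eno1 0.50, Pkm 0.36 and Hif1a -0.86. With slide as a fixed block they were Slc16a1 -0.052, Hk2 -0.034, Pfkl 0.034, Aldoc 0.12, Tpi1 -0.076, Ldha -0.30, Pdk1 -0.53, Ankrd37 -0.14 and Ddit4 -0.43. Within slide 1 they were Pfkl 0.014, Aldoa 0.18, Gapdh 0.25, Eno1 0.14, Pkm 0.16, Pdk1 -0.60 and Hif1a -0.44. Within slide 4 they were Slc2a3 -0.61, Slc16a1 -0.32, Hk2 -0.39, Pfkl 0.055, Aldoc 0.44, Tpi1 -0.57, Ldha -0.78, Pfkfb3 -0.12, Pdk1 -0.47, Egln3 0.089, Ankrd37 -0.60, Ddit4 -1.04 and P4ha1 0.099. Leaving out 1 array turned the sign for some genes, with ranges of Aldoa -0.30 to 0.22, Ankrd37 -0.11 to 0.23, Ddit4 -0.087 to 0.20, Egln3 -0.46 to 0.062, Eno1 -0.41 to 0.10, Eno2 -0.22 to 0.14, Gapdh -0.26 to 0.24, Gpi1 -0.34 to 0.017, Hif1a -0.14 to 0.21, Hk2 -0.059 to 0.25, Ldha -0.19 to 0.23, Pdk1 -0.22 to 0.14, Pfkfb4 -0.39 to 0.015, Pfkl -0.23 to 0.20, Pfkm -0.27 to 0.049, Pgam1 -0.28 to 0.019, Pkm -0.36 to 0.19, Slc16a1 -0.0047 to 0.17 and Slc2a3 -0.084 to 0.24. The signs of Ero1a, Epas1, Pfkp, Ndrg1, Vegfa, Slc16a3 and Slc2a1 did not turn in the settings of this paragraph. Those of Adm, Bnip3, Car9, Egln1 and Pgk1, also lower in FAKi tumours, and of Hk1, higher in FAKi tumours, did not turn there either. These settings do not include array weights or the fit without vehicle 5, vehicle 6 and FAKi 6. Without those 3 arrays 18 of the 36 were above 0, against 11 in the reported setting. Slc16a3, Pgk1 and Hk1 were among the genes whose sign turned there. With array weights 14 were above 0, and the genes that turned are not listed.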

Other observations

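Markers of other cell types in the tumour pieces held 0 adjusted calls in limma. Of 9 acinar pancreas markers, genes of digestive enzyme cells, all 9 had a difference above 0, where 60.8% of all genes did. Their median was 0.42, with Prss2 at 1.23 (SE 0.39) and Cela1 at 1.11 (SE 0.64). The second kept probe of Cela1 differed by 0.43. Of 7 genes of dividing cells all 7 were above 0, with a median of 0.28, Aurkb at 0.68 (SE 0.29) and Cdk1 at 0.37 (SE 0.20). Of 6 adipocyte genes all 6 were below 0, with a median of -0.78, Adipoq at -2.98 (SE 1.90) and Cfd at -2.02 (SE 1.61), and of 5 red cell genes all 5 were below 0, with a median of -0.52, Hbb-bt at -0.99 (SE 0.57) and Hba-a2 at -0.57 (SE 0.50).

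The other marker lists lay on both sides of 0, where 60.8% of all genes were above 0. Skeletal muscle had 9 of 12 above 0, with Atp2a1 at 0.57 (SE 0.39) and Tnni2 at 0.57 (SE 0.48), and neutrophils 5 of 7, with Cxcr2 at 0.54 (SE 0.43) and S100a8 at 0.45 (SE 0.52). Epithelium had 4 of 8 above 0, with Cldn7 at -1.59 (SE 0.79) and Krt19 at 0.37 (SE 0.34). The second kept probe of Cldn7 differed by 0.37. Fibroblasts had 4 of 9 above 0, with Thy1 at 0.34 (SE 0.28) and Pdgfrb at 0.32 (SE 0.32). Macrophages had 4 of 8 above 0, with Cd163 at -0.94 (SE 0.71) and Adgre1 at -0.46 (SE 0.40). The second kept probes of Cd163 and Adgre1 differed by 0.0032 and 0.25. T cells had 5 of 7 above 0, with Cd2 at -0.35 (SE 0.45) and Cd4 at 0.15 (SE 0.30). For each list the named genes are those of smallest unadjusted p in limma, and Amy2a5, Trac and Hbb-bs were not measured here.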
